A study of Mus musculus with 12 samples.

Results

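Sterol and fatty acid synthesis genes were followed in mouse kidney as a list of 33 named genes, of which 32 had a line in a count table of 28991 gene identifiers and Mvd was not analysed here. All 32 passed the filter on low counts, which left 20370 genes in the test. By role they were 17 enzymes of sterol synthesis, 6 regulators of the pathway and 9 enzymes of fatty acid synthesis and desaturation. The members were chosen by name for their place in these pathways, and earlier results of these data were known when the list was made. Kidney RNA was sequenced from 4 groups of 3 mice, with 1 library per mouse; the animals were males of the inbred strain BALB/c and 8 weeks old. Cisplatin+Dichloroacetate mice received dichloroacetate at 250 mg/kg for 5 days and then a single injection of cisplatin at 20 mg/kg together with dichloroacetate. Cisplatin mice received saline for 5 days and then cisplatin once at 20 mg/kg, and both of these groups were killed 24 hours after cisplatin. Dichloroacetate mice received 250 mg/kg for 6 days without cisplatin, and Saline mice received saline for 6 days and served as controls. All agents were injected into the peritoneum, with the pretreatments repeated every day. The design asks how the kidney responds to cisplatin, a platinum drug that crosslinks DNA and injures the proximal tubule, and whether dichloroacetate, an inhibitor of pyruvate dehydrogenase kinase, alters that response.

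Cells build cholesterol from acetyl-CoA through the mevalonate pathway, which leads to isoprenoids, then squalene, then lanosterol and a series of demethylation, reduction and isomerisation steps. Transcription of most of these enzymes is driven by SREBP2 (gene Srebf2), and that of fatty acid synthesis enzymes by SREBP1 (gene Srebf1). Both proteins are held in the endoplasmic reticulum when sterols are plentiful, through the escort protein SCAP and the INSIG retention proteins, and are released for processing when sterols are low. In the kidney the proximal tubule obtains most of its energy by burning fatty acids.

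Library totals ran from 29505929 to 35082408 counts in Cisplatin+Dichloroacetate kidneys, 29614283 to 35925471 in Cisplatin kidneys, 41525403 to 62237514 in Dichloroacetate kidneys and 38236592 to 55832441 in Saline kidneys, so the cisplatin libraries were shallower. Levels below are CPM, that is counts scaled to library size, here with TMM scaling. Comparisons between genes use CPM per kb of exon. A gene is called higher or lower at an adjusted p below 0.05 in edgeR's quasi-likelihood test with Benjamini-Hochberg adjustment over all 20370 genes. An adjusted p given here comes from that fit unless DESeq2, a left-out library or another fit is named beside it. The defining proximal tubule markers Slc34a1 and Lrp2 and the tubule markers Umod and Slc12a3 were present in every library. Some defining markers of neighbouring tissues were near 0: the group means of Adipoq, Plin1, Cyp11a1, Cyp11b1 and Apoa1 were all under 1 CPM, and Cyp11b1 was listed at 0 in every Cisplatin+Dichloroacetate, Cisplatin and Dichloroacetate library. The hepatocyte marker Alb averaged 1.13 CPM in Cisplatin+Dichloroacetate kidneys, 1.70 CPM in Cisplatin kidneys, 0.947 CPM in Dichloroacetate kidneys and 3.43 CPM in Saline kidneys. The summed levels of the whole lists were higher. The 8 hepatocyte markers summed to 529 to 727 CPM in Cisplatin+Dichloroacetate kidneys, 378 to 439 CPM in Cisplatin kidneys, 2333 to 3230 CPM in Dichloroacetate kidneys and 1898 to 2370 CPM in Saline kidneys. Most of this was Cyp2e1, a cytochrome P450 that averaged 565 CPM in Cisplatin+Dichloroacetate kidneys, 363 CPM in Cisplatin kidneys, 2563 CPM in Dichloroacetate kidneys and 2107 CPM in Saline kidneys. The 12 adipocyte markers summed to 31.7 to 70.5 CPM in Cisplatin+Dichloroacetate kidneys, 35.3 to 60.7 CPM in Cisplatin kidneys, 60.2 to 73.0 CPM in Dichloroacetate kidneys and 58.0 to 75.1 CPM in Saline kidneys, mostly from Fabp4, a fatty acid carrier also known in endothelium.

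In Saline kidneys the enzymes differed widely in level. Hmgcs1, the cytosolic synthase that makes HMG-CoA from acetoacetyl-CoA, stood first at 118 ± 19.0 CPM per kb (SD, n = 3) and supplied 33.1% of the summed level of the 17 sterol enzymes. Cyp51, the lanosterol 14-alpha-demethylase, followed at 50.4 ± 2.65 CPM per kb and Acat2, the cytosolic acetoacetyl-CoA thiolase that opens the pathway, at 47.8 ± 3.44 CPM per kb. Cyp51 and Acat2 lay within each other's spread. Idi1, which isomerises the first isoprenoid unit, stood at 37.3 ± 2.29 CPM per kb and Fads2, the delta-6 fatty acid desaturase, at 33.1 ± 0.589 CPM per kb. At the other end Acaca, the acetyl-CoA carboxylase that starts cytosolic fatty acid synthesis, stood at 1.34 ± 0.0388 CPM per kb, below its mitochondrial relative Acacb at 3.16 ± 0.520 CPM per kb. Acat2 has a close paralog, so its counts are uncertain. Exons shared with another gene make others less sure. Fdps shares 26.7% of its exon bases with Gm43738 on the same strand. On the opposite strand, which matters where reads were counted without strand, Scap shares 13.2% with 5830462I19Rik, Hmgcs1 12.1% with Gm48342, Idi1 9.22% with Gm48574, Cyp51 3.76% with Akap9 and Lss 3.53% with 4930483K19Rik.

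**Figure D1:**
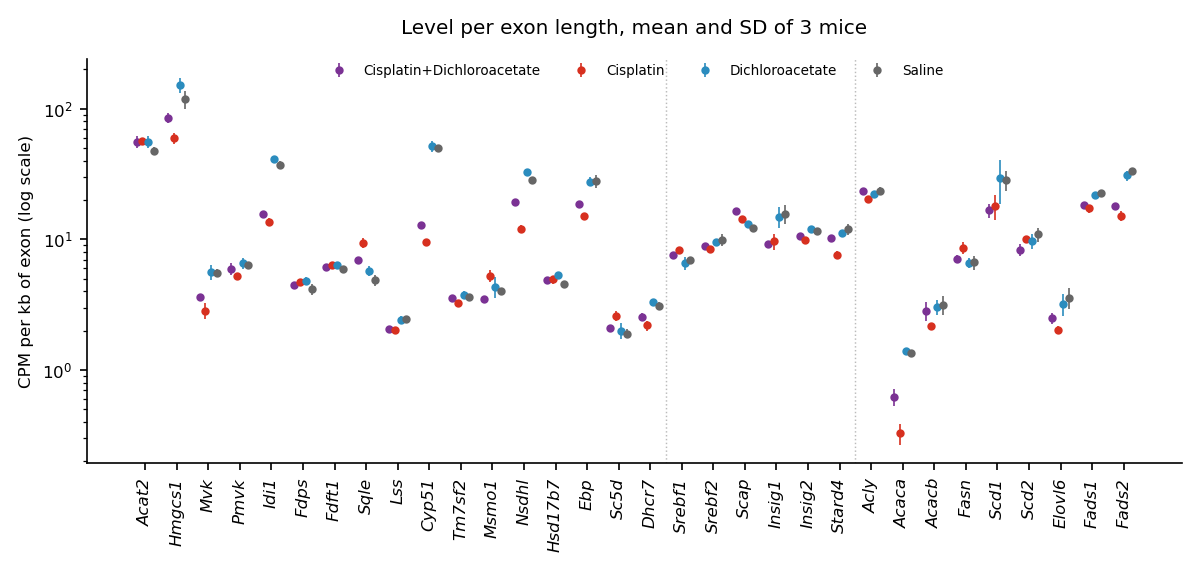
Level of each of the 32 genes in CPM per kb of exon on a log axis, as the mean (point) and SD (line) of 3 mice in each of the 4 groups; dotted lines part sterol enzymes, regulators and fatty acid enzymes. Hmgcs1 had the highest level in every group, and the points of Cyp51, Idi1 and Acaca show the widest gaps between the groups given cisplatin and those not given it.

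Most members were lower in Cisplatin than in Saline kidneys, but not all of them. Among the 32, 7 were called higher and 20 lower, where 60.1% of all 20370 genes were called, 29.7% higher and 30.4% lower. The median log2 fold change was -0.28 over the members and -0.01 over all genes tested. Of the 17 sterol enzymes 4 were called higher and 9 lower, of the 6 regulators 2 higher and 4 lower, and of the 9 fatty acid enzymes 1 higher and 7 lower. The summed level of the 17 sterol enzymes was 213 to 218 CPM per kb in Cisplatin kidneys, against 333 to 383 CPM per kb in Saline kidneys, with no overlap. Without Hmgcs1 and Cyp51 the group means of this sum were 146 CPM per kb in Cisplatin kidneys and 188 CPM per kb in Saline kidneys. For the 9 fatty acid enzymes the sum was 88.3 to 102 CPM per kb in Cisplatin kidneys, against 126 to 143 CPM per kb in Saline kidneys. Markers of the tubule moved with these values: the 12 proximal tubule markers summed to 4782 to 5744 CPM in Cisplatin kidneys and 11900 to 14096 CPM in Saline kidneys, with 11 of 12 called lower. Of the 8 markers of the loop of Henle and distal tubule 7 were called lower and 1 higher. They summed to 1824 to 2344 CPM in Cisplatin kidneys and 4771 to 5304 CPM in Saline kidneys. Collecting duct markers (459 to 499 CPM in Cisplatin kidneys, 591 to 650 CPM in Saline kidneys, 6 of 8 called lower) and endothelial markers (151 to 157 CPM in Cisplatin kidneys, 183 to 249 CPM in Saline kidneys, 4 of 6 called lower) did so too. So did the 8 hepatocyte markers, at 378 to 439 CPM in Cisplatin kidneys and 1898 to 2370 CPM in Saline kidneys, mostly Cyp2e1, with 4 of 6 tested called lower and 1 higher. The adipocyte and macrophage sums overlapped between these groups. Of 9 adipocyte markers tested 2 were called higher and 1 lower, and of 6 macrophage markers 1 was called higher and 2 lower. The part of these markers in the result was not tested, and in bulk tissue fewer cells of a type and less RNA per cell cannot be told apart.

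**Figure D2:**
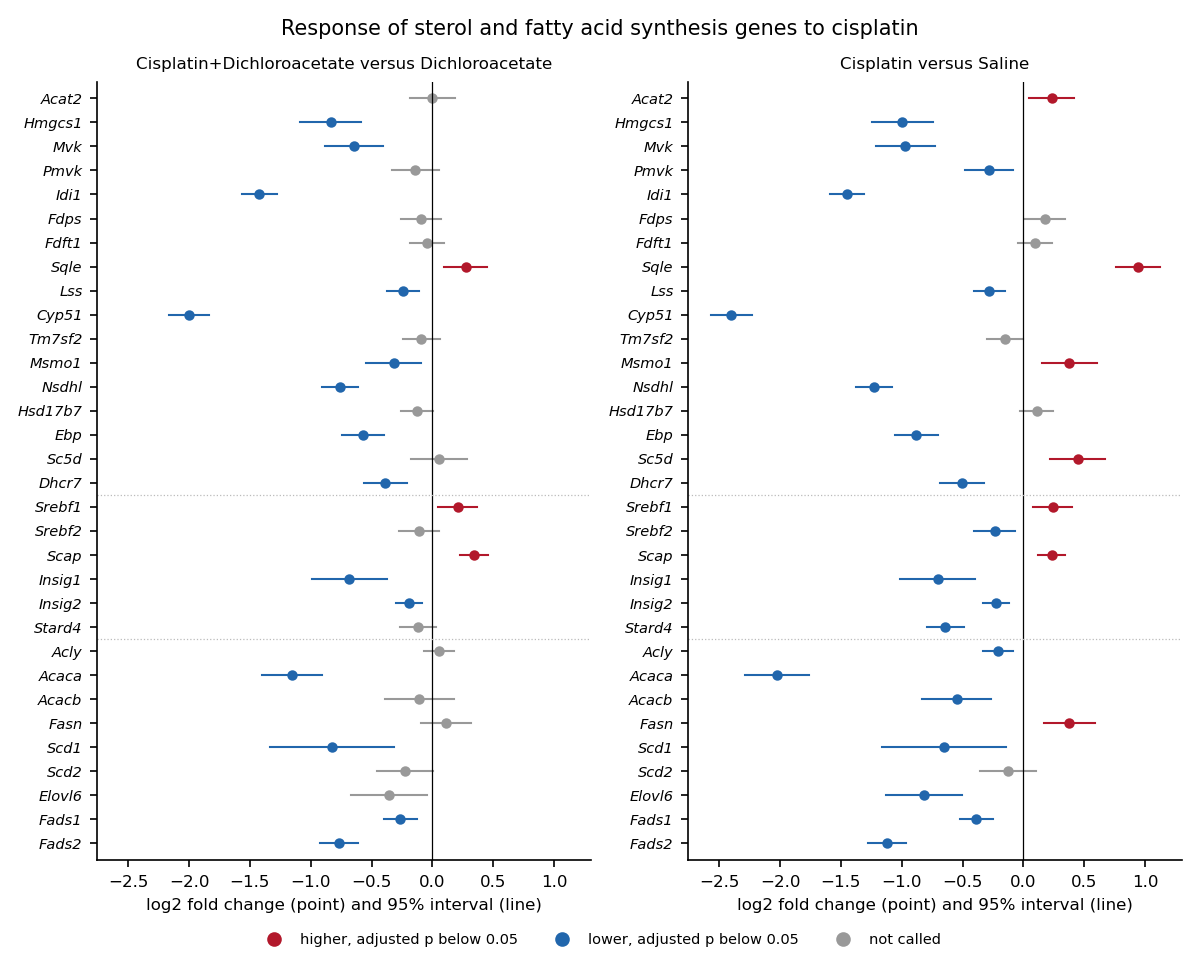
Log2 fold change (point) with its 95% interval (line) of each gene for cisplatin given on top of dichloroacetate (left) and cisplatin against saline (right), coloured by the call at an adjusted p below 0.05. Cyp51 and Idi1 lie far to the left in both panels, and Sqle is called higher in both.

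From Hmgcs1 to Idi1 the called enzymes of the sterol pathway were lower with cisplatin, while Acat2, which opens the pathway, was called higher. Hmgcs1 stood at 364, 385 and 428 CPM in Cisplatin+Dichloroacetate kidneys, 245, 273 and 297 CPM in Cisplatin kidneys, 645, 649 and 805 CPM in Dichloroacetate kidneys and 480.4, 503 and 641 CPM in Saline kidneys. The Cisplatin libraries were the lowest and did not overlap the Saline libraries, and the log2 fold change was -0.99 (SE 0.12, adjusted p = 7.10e-06). Mvk, the mevalonate kinase, fell by a similar size at -0.97 (SE 0.11, adjusted p = 5.58e-06). Pmvk, the next kinase, fell less at -0.28 (SE 0.09, adjusted p = 0.016). Idi1 had 52.8, 55.2 and 55.1 CPM in Cisplatin+Dichloroacetate kidneys, 51.7, 45.8 and 46.1 CPM in Cisplatin kidneys, 153, 142 and 141 CPM in Dichloroacetate kidneys and 128, 139.9 and 125 CPM in Saline kidneys. Both groups given cisplatin lay far below every library of the groups not given it, and Idi1 was 2.73-fold lower with cisplatin than with saline, at -1.45 (SE 0.07, adjusted p = 7.88e-10). Acat2 was called higher at 0.23 (SE 0.09, adjusted p = 0.031), though without Saline replicate 1, Cisplatin replicate 2 or Cisplatin replicate 3 it was no longer called, with an adjusted p of up to 0.124. Without Cisplatin replicate 1 the adjusted p of Pmvk was 0.056.

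At the steps that make and oxidise squalene, Fdps and Fdft1 were not called and Sqle rose. Fdft1, squalene synthase, had 27.1, 26.3 and 24.5 CPM in Cisplatin+Dichloroacetate kidneys, 27.97, 27.7 and 25 CPM in Cisplatin kidneys, 26.6, 28.4 and 25.2 CPM in Dichloroacetate kidneys and 25.7, 24.1 and 25.8 CPM in Saline kidneys. The groups overlapped in every pairwise comparison, and the log2 fold change with cisplatin was 0.09 (95% interval -0.04 to 0.23, adjusted p = 0.22). Fdft1 shares 18.3% of its exon bases with Ctsb on the opposite strand, and the counting is not stated to use strand. Fdps, which makes farnesyl diphosphate one step earlier, was at 0.18 (SE 0.08, adjusted p = 0.057) and was not called. Sqle, squalene epoxidase and a rate-limiting step of the pathway, had 39.7, 38.6 and 37.6 CPM in Cisplatin+Dichloroacetate kidneys, 56.8, 51.9 and 47.9 CPM in Cisplatin kidneys, 30.5, 35.4 and 29.98 CPM in Dichloroacetate kidneys and 29.5, 27.4 and 24.4 CPM in Saline kidneys. All 3 Cisplatin libraries lay above every other library, and the log2 fold change against Saline was 0.94 (SE 0.08, adjusted p = 3.86e-07), a 1.92-fold rise. Lss, which cyclises the product of Sqle to lanosterol, fell slightly at -0.28 (SE 0.06, adjusted p = 0.0011).

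Between lanosterol and cholesterol the enzymes split in direction. Cyp51 carries out the first demethylation of lanosterol and changed most of all members. It had 59.8, 57.5 and 53.4 CPM in Cisplatin+Dichloroacetate kidneys, 40.95, 44.8 and 40.5 CPM in Cisplatin kidneys, 245, 233 and 204 CPM in Dichloroacetate kidneys and 213, 219 and 236 CPM in Saline kidneys. Cisplatin libraries lay far below Saline libraries, the groups did not overlap, and Cyp51 was 5.29-fold lower at -2.40 (SE 0.08, adjusted p = 5.83e-11). Msmo1, the C4-methyl oxidase that removes further methyl groups, had 21.6, 20.8 and 21.5 CPM in Cisplatin+Dichloroacetate kidneys, 36.2, 31.1 and 29.6 CPM in Cisplatin kidneys, 24.6, 32.04 and 23.1 CPM in Dichloroacetate kidneys and 25.3, 24.98 and 24.2 CPM in Saline kidneys. Its Cisplatin libraries lay above every Saline library, 1 Dichloroacetate library fell within their range, and the log2 fold change against Saline was 0.38 (SE 0.10, adjusted p = 0.0062). Nsdhl, the dehydrogenase that acts on the same methyl groups after Msmo1, had 52.04, 54.1 and 58.4 CPM in Cisplatin+Dichloroacetate kidneys, 32.5, 34.1 and 36.9 CPM in Cisplatin kidneys, 91.1, 88.7 and 98.9 CPM in Dichloroacetate kidneys and 75.8, 84.2 and 82.1 CPM in Saline kidneys. Every Cisplatin library lay below every other library, and Nsdhl was 2.34-fold lower than in Saline at -1.22 (SE 0.07, adjusted p = 5.76e-09). Msmo1 and Nsdhl, which act in turn, thus had opposite signs in the same libraries.

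The last steps showed the same mixture. Ebp, the sterol delta8-delta7 isomerase, fell at -0.88 (SE 0.08, adjusted p = 6.90e-07), whereas Sc5d, the desaturase that acts on its product, rose at 0.45 (SE 0.10, adjusted p = 0.0022). Dhcr7, which completes cholesterol, had 15.2, 13.6 and 15.4 CPM in Cisplatin+Dichloroacetate kidneys, 13.97, 11.8 and 12.5 CPM in Cisplatin kidneys, 20.7, 18.6 and 18.5 CPM in Dichloroacetate kidneys and 16.8, 19.3 and 18.1 CPM in Saline kidneys. Cisplatin and Saline kidneys did not overlap for Dhcr7, and the log2 fold change was -0.50 (SE 0.08, adjusted p = 1.45e-04). Hsd17b7, the ketosteroid reductase of the C4-demethylation complex, was at 0.11 (SE 0.06, adjusted p = 0.15) and Tm7sf2, the C14 sterol reductase, at -0.15 (SE 0.07, adjusted p = 0.078), and neither was called. Tm7sf2 shares 12.1% of its exon bases with Vps51 on the same strand.

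The promoters of 4 sterol enzymes are shown because their genes moved together or apart with cisplatin. Hmgcs1, Cyp51 and Nsdhl were lower and Msmo1 was higher. Each window holds 250 bases before and 50 bases after the start of the gene, from RefSeq on build GRCm38.p6, and is written 5′ to 3′ on the strand of the gene. Capitals mark every match, on either strand, of TCACNCCAC, a core of the sterol regulatory element bound by SREBP proteins, or of CCAAT, the box bound by NF-Y. The Hmgcs1 window lies at chr13:119690101-119690400 on the plus strand, the Cyp51 window at chr5:4104648-4104947 on the minus strand, the Nsdhl window at chrX:72918271-72918570 on the plus strand and the Msmo1 window at chr8:64733529-64733828 on the minus strand.
Hmgcs1: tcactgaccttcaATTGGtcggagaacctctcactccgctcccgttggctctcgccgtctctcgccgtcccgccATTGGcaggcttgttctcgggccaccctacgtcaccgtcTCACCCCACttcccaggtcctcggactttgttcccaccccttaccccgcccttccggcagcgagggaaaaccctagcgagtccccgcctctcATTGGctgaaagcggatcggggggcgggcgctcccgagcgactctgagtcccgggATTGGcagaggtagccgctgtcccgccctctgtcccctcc
Cyp51: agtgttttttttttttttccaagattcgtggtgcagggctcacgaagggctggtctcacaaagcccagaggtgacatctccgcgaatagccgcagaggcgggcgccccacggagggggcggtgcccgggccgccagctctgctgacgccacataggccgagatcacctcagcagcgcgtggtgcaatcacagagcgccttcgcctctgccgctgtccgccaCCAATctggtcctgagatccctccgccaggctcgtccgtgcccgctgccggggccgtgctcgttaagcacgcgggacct
Nsdhl: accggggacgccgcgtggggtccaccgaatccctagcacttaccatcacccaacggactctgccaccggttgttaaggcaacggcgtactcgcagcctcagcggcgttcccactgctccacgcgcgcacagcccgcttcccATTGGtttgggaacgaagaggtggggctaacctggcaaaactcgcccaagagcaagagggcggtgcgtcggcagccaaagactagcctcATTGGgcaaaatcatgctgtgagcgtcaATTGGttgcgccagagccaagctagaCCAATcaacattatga
Msmo1: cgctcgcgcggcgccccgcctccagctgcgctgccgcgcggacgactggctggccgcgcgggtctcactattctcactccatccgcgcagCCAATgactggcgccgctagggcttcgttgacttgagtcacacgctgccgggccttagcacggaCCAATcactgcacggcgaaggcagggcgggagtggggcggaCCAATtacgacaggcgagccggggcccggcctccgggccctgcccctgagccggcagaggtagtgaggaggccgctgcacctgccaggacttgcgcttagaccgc
RefSeq windows were matched by symbol for 25 of the 32 members, with 33 windows because some genes have several starts, and Fads1, Fdft1, Fdps, Scd1, Scd2, Sqle and Stard4 had no window. TCACNCCAC was found in 1 of the 33 windows, that of Hmgcs1, which is 3.03% against 1.24% of all 32851 windows. CCAAT was found in 63.6% of member windows and 37.4% of all windows, CACGTG (the E-box) in 18.2% and 7.15%, and GGGCGG (the GC box) in 72.7% and 35.7%. All 4 motifs were searched on both strands and none contains another. Among windows of members lower with cisplatin 14 of 22 held CCAAT, and among those of members higher 5 of 9 did. Hmgcs1 and Nsdhl, which fell, had 4 CCAAT matches each, Msmo1, which rose, had 3, and Cyp51, which fell most, had 1. CCAAT thus stood in members of both directions, and a match is a description of the sequence only.

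Among the regulators, the 2 SREBP genes and Scap changed little. Srebf2 had 68.3, 61.02 and 62.3 CPM in Cisplatin+Dichloroacetate kidneys, 64.8, 58.5 and 57.8 CPM in Cisplatin kidneys, 70.3, 71.1 and 64.99 CPM in Dichloroacetate kidneys and 79.4, 68.1 and 65.7 CPM in Saline kidneys. Cisplatin and Saline kidneys did not overlap, but the log2 fold change was only -0.24 (SE 0.08, adjusted p = 0.017). Srebf1 had 39.8, 43.5 and 44.7 CPM in Cisplatin+Dichloroacetate kidneys, 47.3, 46.1 and 45.97 CPM in Cisplatin kidneys, 32.8, 37.01 and 41.2 CPM in Dichloroacetate kidneys and 39.99, 36.9 and 40.9 CPM in Saline kidneys. It was highest in Cisplatin kidneys, above every Saline library, at 0.24 (SE 0.07, adjusted p = 0.012). The calls of both were lost in some leave-one-out fits: Srebf1 without Saline replicate 2 (adjusted p = 0.059), and Srebf2 without Saline replicate 1, Cisplatin replicate 2 or Cisplatin replicate 3 (adjusted p up to 0.0844). Scap, the escort protein, rose at 0.23 (SE 0.05, adjusted p = 0.0018).

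Insig1, a retention protein that is itself an SREBP target, had 29.97, 27.8 and 27.9 CPM in Cisplatin+Dichloroacetate kidneys, 34.9, 27.02 and 27.8 CPM in Cisplatin kidneys, 36.5, 52.8 and 48.5 CPM in Dichloroacetate kidneys and 50.1, 56.01 and 39.8 CPM in Saline kidneys. Both groups given cisplatin lay below both groups not given it, and the log2 fold change of Cisplatin against Saline was -0.70 (SE 0.14, adjusted p = 7.51e-04). Insig2, the second retention protein, had 36.8, 38.4 and 34.6 CPM in Cisplatin+Dichloroacetate kidneys, 33.3, 35.3 and 34.9 CPM in Cisplatin kidneys, 40.6, 42.8 and 41.9 CPM in Dichloroacetate kidneys and 39.2, 41.4 and 40.8 CPM in Saline kidneys. Cisplatin and Saline kidneys did not overlap, and the change was smaller at -0.23 (SE 0.05, adjusted p = 0.0013). Stard4, a soluble carrier that moves cholesterol to the endoplasmic reticulum, had 54.9, 56.8 and 61.2 CPM in Cisplatin+Dichloroacetate kidneys, 45.1, 40 and 42.9 CPM in Cisplatin kidneys, 60.5, 62.5 and 64.5 CPM in Dichloroacetate kidneys and 62.98, 63.4 and 73.7 CPM in Saline kidneys. It was lowest in all 3 Cisplatin libraries, at -0.64 (SE 0.07, adjusted p = 3.29e-06) against Saline.

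**Figure D3:**
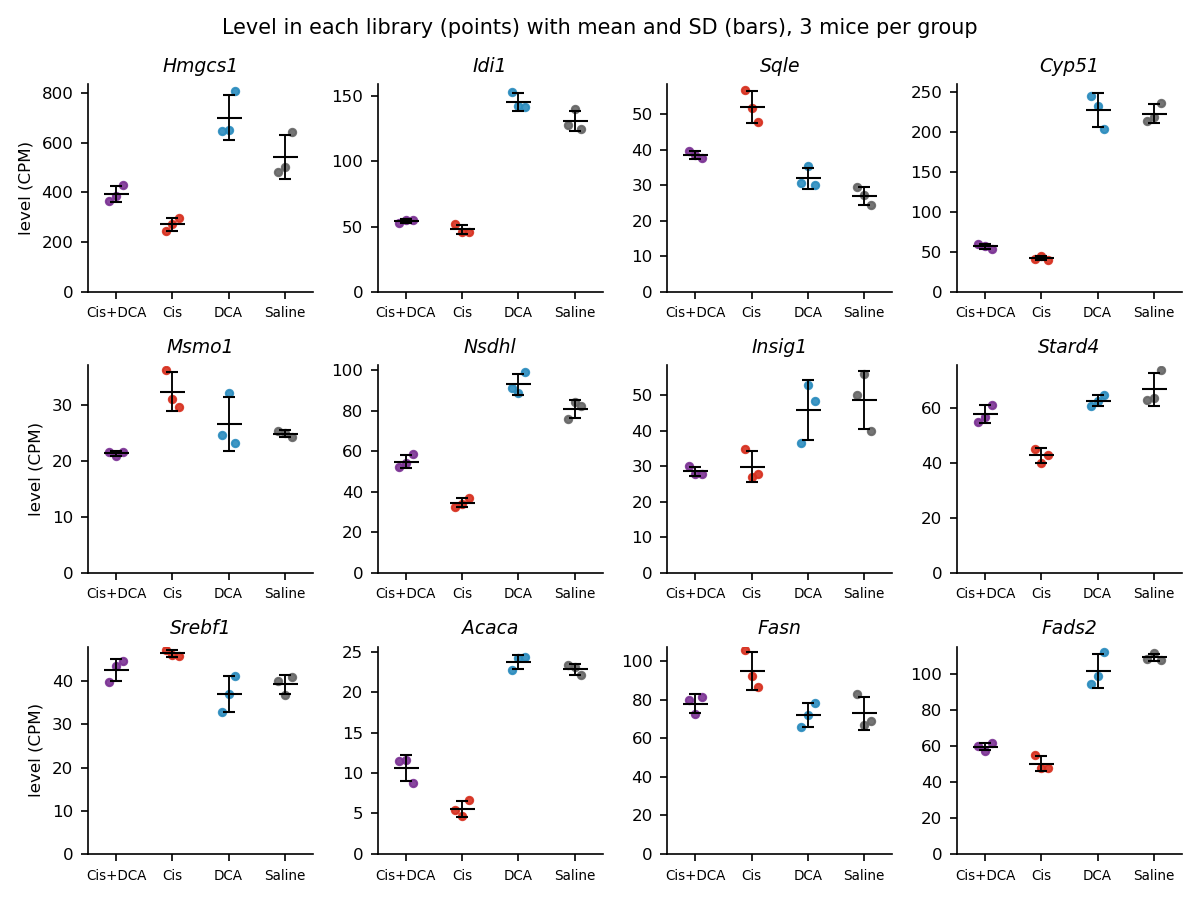
Level in CPM of 12 members in every library (points) with the mean and SD of 3 mice (bars), for Cisplatin+Dichloroacetate (Cis+DCA), Cisplatin (Cis), Dichloroacetate (DCA) and Saline kidneys, each axis starting at 0. Sqle stands at 47.9 to 56.8 CPM in Cisplatin kidneys against 24.4 to 29.5 CPM in Saline kidneys, while Cyp51 stands at 40.5 to 44.8 CPM in Cisplatin kidneys against 213 to 236 CPM in Saline kidneys.

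Fatty acid synthesis begins with Acly, the ATP citrate lyase that supplies cytosolic acetyl-CoA. Acly had 125, 124 and 119 CPM in Cisplatin+Dichloroacetate kidneys, 108, 101 and 111 CPM in Cisplatin kidneys, 119, 118 and 117 CPM in Dichloroacetate kidneys and 125, 114 and 131 CPM in Saline kidneys. Its Cisplatin libraries were the lowest in the set, and against Saline the log2 fold change was -0.21 (SE 0.06, adjusted p = 0.0074). Acaca had 11.5, 11.7 and 8.80 CPM in Cisplatin+Dichloroacetate kidneys, 5.45, 4.64 and 6.65 CPM in Cisplatin kidneys, 22.7, 24.2 and 24.3 CPM in Dichloroacetate kidneys and 23.3, 23.1 and 22.1 CPM in Saline kidneys. Every Cisplatin library lay far below every Saline library, and Acaca was 4.08-fold lower at -2.03 (SE 0.12, adjusted p = 1.01e-08). Acacb, the carboxylase at the mitochondrial surface that restrains fatty acid burning, had 31.5, 27.5 and 22.7 CPM in Cisplatin+Dichloroacetate kidneys, 19.9, 20.1 and 22.3 CPM in Cisplatin kidneys, 29.5, 33.03 and 25.3 CPM in Dichloroacetate kidneys and 36.1, 28.5 and 26.6 CPM in Saline kidneys. Cisplatin and Saline kidneys did not overlap, and the log2 fold change was -0.55 (SE 0.13, adjusted p = 0.0028).

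Fasn, the fatty acid synthase, differed in sign from the carboxylases. It had 80.1, 72.4 and 81.6 CPM in Cisplatin+Dichloroacetate kidneys, 106, 92.3 and 86.5 CPM in Cisplatin kidneys, 65.98, 71.96 and 78.4 CPM in Dichloroacetate kidneys and 82.8, 66.7 and 69.2 CPM in Saline kidneys. All 3 Cisplatin libraries lay above all 3 Saline libraries, and the log2 fold change was 0.38 (SE 0.10, adjusted p = 0.0039). Scd1, a stearoyl-CoA desaturase, had 84.4, 89.4 and 70.2 CPM in Cisplatin+Dichloroacetate kidneys, 110.2, 73.7 and 81.4 CPM in Cisplatin kidneys, 84.9, 161 and 187 CPM in Dichloroacetate kidneys and 167, 119 and 132 CPM in Saline kidneys. Its libraries were widely spread, Dichloroacetate kidneys most of all, and it was lower with cisplatin at -0.66 (SE 0.24, adjusted p = 0.028). Without Saline replicate 1, Cisplatin replicate 2 or Cisplatin replicate 3 that call was lost, with an adjusted p of up to 0.112. Scd2, a paralog of Scd1 known for its expression in brain, had 45.8, 50.1 and 40.5 CPM in Cisplatin+Dichloroacetate kidneys, 53.6, 53.6 and 56.8 CPM in Cisplatin kidneys, 45.4, 57.5 and 56.8 CPM in Dichloroacetate kidneys and 64.7, 51.4 and 63.3 CPM in Saline kidneys. Cisplatin and Saline kidneys overlapped, and Scd2 was not called at -0.13 (95% interval -0.36 to 0.10, adjusted p = 0.31). Fads2 had 60.03, 57.4 and 61.4 CPM in Cisplatin+Dichloroacetate kidneys, 55.2, 47.5 and 47.8 CPM in Cisplatin kidneys, 94.2, 98.6 and 112 CPM in Dichloroacetate kidneys and 108, 111 and 108 CPM in Saline kidneys. Both groups given cisplatin lay far below the other 2, and against Saline Fads2 was 2.18-fold lower at -1.12 (SE 0.07, adjusted p = 2.36e-08). Fads1, the delta-5 desaturase that works with Fads2, fell less at -0.39 (SE 0.06, adjusted p = 1.22e-04), and Elovl6, which lengthens palmitate, fell at -0.82 (SE 0.15, adjusted p = 2.65e-04).

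Genomic span moved with the response. Across all genes tested the median log2 fold change of Cisplatin against Saline was 0.13 for genes spanning up to 5 kb and -1.39 for those over 400 kb. Acaca spans 272 kb, where the class median was -0.97, and its log2 fold change minus that median was -1.06. Acacb spans 104 kb and Elovl6 106 kb, and after the same subtraction they stood at -0.13 and -0.40. Cyp51 spans 23.6 kb in a class whose median was -0.01, and it stood at -2.40 after subtraction. Idi1 spans 6.95 kb and stood at -1.56. The same subtraction left Srebf2 at -0.10, Acly at -0.07 and Scap at 0.37. No called member changed sign in this way, and the part of span in these changes was not tested further.

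**Figure D4:**
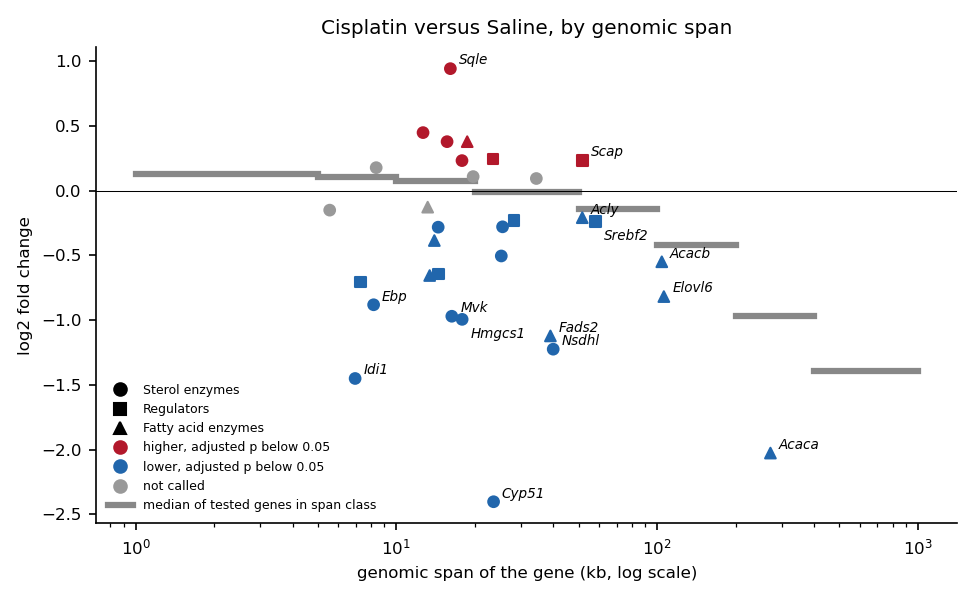
Log2 fold change of Cisplatin against Saline for each member (circles, sterol enzymes; squares, regulators; triangles, fatty acid enzymes; coloured by call) against genomic span on a log axis, with grey bars at the median of all tested genes in each span class; the first and last classes are open-ended. Acaca lies in a class with a median of -0.97, whereas Cyp51 and Idi1 lie far below bars close to 0.

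Dichloroacetate alone gave no call among the 32 members against Saline, neither higher nor lower, by edgeR's quasi-likelihood test, where 0.309% of all genes were called. By DESeq2 the count was also 0, where 167 of 20370 genes were called higher and 142 lower. At an unadjusted p below 0.05 there were 7 members, where 11.9% of all genes passed that threshold, 5.7% higher and 6.21% lower. All 7 were sterol enzymes with positive log2 fold changes: Hmgcs1, Hsd17b7, Nsdhl, Sqle, Fdps, Acat2 and Idi1. Hmgcs1 had the largest of these at 0.37 (SE 0.12, adjusted p = 0.21), with a 95% interval of 0.12 to 0.62. Its 3 Dichloroacetate libraries lay above its 3 Saline libraries, by a narrow margin for the highest Saline library. Cyp51 was at 0.03 (95% interval -0.13 to 0.19) and Srebf2 at -0.05 (95% interval -0.21 to 0.12). Summed over the 17 sterol enzymes the level was 398 to 437 CPM per kb in Dichloroacetate kidneys and 333 to 383 CPM per kb in Saline kidneys, which did not overlap. Hmgcs1 made up 37.0% of this sum in Dichloroacetate kidneys and 33.1% in Saline kidneys, at means of 152 and 118 CPM per kb. Without Hmgcs1 and Cyp51 the group means of the sum were 208 CPM per kb in Dichloroacetate kidneys and 188 CPM per kb in Saline kidneys. For the 9 fatty acid enzymes, the sums of 112 to 140 CPM per kb in Dichloroacetate kidneys and 126 to 143 CPM per kb in Saline kidneys overlapped, and Fasn was at -0.02 (95% interval -0.22 to 0.19).

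With dichloroacetate given before and with cisplatin, many but not all of the members that cisplatin lowered were called higher than with cisplatin alone. In Cisplatin+Dichloroacetate against Cisplatin kidneys 12 members were called higher and 4 lower, where 31.6% of all genes were called, 18.1% higher and 13.5% lower. The median log2 fold change was 0.10 over the members and 0.01 over all genes. The 12 called higher were Hmgcs1, Mvk, Idi1, Cyp51, Nsdhl, Ebp, Scap, Stard4, Acly, Acaca, Acacb and Fads2, and the 4 called lower were Sqle, Msmo1, Sc5d and Fasn. Acaca was highest in this comparison at 0.93 (SE 0.13, adjusted p = 1.11e-04), then Nsdhl at 0.67 (SE 0.07, adjusted p = 1.70e-05) and Hmgcs1 at 0.53 (SE 0.12, adjusted p = 0.0036). After subtracting the median of genes of like span Acaca stood at 0.56, below Nsdhl at 0.67 and beside Hmgcs1 at 0.57, while Acacb moved to 0.16 against 0.39 before, Scap to 0.14 against 0.21 and Acly to 0.13 against 0.20. Cyp51 was at 0.44 (SE 0.08, adjusted p = 7.06e-04) and Stard4 at 0.43 (SE 0.07, adjusted p = 4.24e-04). Downward, Msmo1 was at -0.60 (SE 0.11, adjusted p = 7.75e-04), with all 3 combination libraries below all 3 Cisplatin libraries, and Sqle was at -0.43 (SE 0.08, adjusted p = 0.0012). Every one of these 16 except Scap had the opposite sign against its own value in Cisplatin against Saline, and the 2 comparisons share the Cisplatin libraries. The summed level of the 17 sterol enzymes was 245 to 267 CPM per kb in combination kidneys and 213 to 218 CPM per kb in Cisplatin kidneys. Without Hmgcs1 and Cyp51 the group means of this sum were 155 CPM per kb in combination kidneys and 146 CPM per kb in Cisplatin kidneys. Proximal tubule markers moved with the sterol enzyme sum, at 8161 to 9001 CPM in combination kidneys and 4782 to 5744 CPM in Cisplatin kidneys, with 11 of 12 called higher. Sums for the loop of Henle and distal tubule overlapped, at 1730 to 2717 CPM in combination kidneys and 1824 to 2344 CPM in Cisplatin kidneys. There 2 of 8 were called higher and 1 lower. Collecting duct sums (3 of 8 called higher) and endothelial sums (0 of 6 called higher, 0 lower) overlapped too. Hepatocyte markers, mostly Cyp2e1 by level, were at 529 to 727 CPM in combination kidneys and 378 to 439 CPM in Cisplatin kidneys. Of 6 tested 1 was called higher and 1 lower. Macrophage markers were at 73.7 to 84.1 CPM in combination kidneys and 95.4 to 109 CPM in Cisplatin kidneys, with 1 of 6 called lower. The part of these markers was not tested.

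The calls of Mvk, Idi1, Ebp, Scap, Acly, Acacb, Fads2, Sc5d and Fasn were lost in at least 1 of the 12 fits that left out 1 library, with an adjusted p of up to 0.188 for Idi1. Without Cisplatin replicate 2 or without Cisplatin+Dichloroacetate replicate 1 the number called higher was 7. Over all genes it was 2917 of 20628 and 3033 of 20678 in these fits, against 3688 of 20370 with every library. Without Cisplatin replicate 1 or Cisplatin+Dichloroacetate replicate 1 the number called lower was 2. Over all genes it was 2169 of 20632 and 2097 of 20678, against 2753 of 20370 with every library. The calls of Acaca, Nsdhl, Hmgcs1, Cyp51, Stard4, Msmo1 and Sqle held in all 12.

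Pmvk, Lss, Dhcr7, Srebf2, Insig1, Insig2, Scd1, Elovl6 and Fads1, all called lower with cisplatin, were not called in this comparison. Insig1 was at -0.07 (95% interval -0.38 to 0.25, adjusted p = 0.78) in combination against Cisplatin kidneys and Scd1 at -0.12 (95% interval -0.63 to 0.39, adjusted p = 0.75). Against Saline, combination kidneys still had Insig1 at -0.77 (SE 0.14, adjusted p = 8.26e-04) and Scd1 at -0.78 (SE 0.24, adjusted p = 0.019). Scap was called higher in all 4 pairwise comparisons that involved cisplatin, and combination kidneys held 129, 118 and 124 CPM, Cisplatin kidneys 104, 104 and 111 CPM and Saline kidneys 94.5, 89.99 and 87.5 CPM. Those 3 groups did not overlap.

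Most members called in combination against Saline kidneys were lower. There 2 members were called higher and 17 lower, where 40.2% of all genes were called, 20.6% higher and 19.6% lower. Cyp51 stood at -1.97 (SE 0.08, adjusted p = 8.17e-10), Idi1 at -1.27 (SE 0.07, adjusted p = 8.97e-09) and Acaca at -1.10 (SE 0.11, adjusted p = 6.42e-06), or -0.51 for Acaca after subtracting the median of genes of like span. Sqle remained higher at 0.51 (SE 0.08, adjusted p = 2.98e-04), and Scap was the other member called higher. Acly, at -0.005 (95% interval -0.13 to 0.12), and Acacb, at -0.16 (95% interval -0.44 to 0.12), were not called. Elovl6 and Scd2 were called lower at -0.52 (SE 0.14, adjusted p = 0.011) and -0.39 (SE 0.11, adjusted p = 0.0096), and Elovl6 stood at -0.32 after that subtraction. Without Saline replicate 1 or Cisplatin+Dichloroacetate replicate 3 the calls of Elovl6 and Scd1 were lost, with adjusted p of up to 0.0541 for Elovl6 and 0.078 for Scd1. Among the cell type markers, 9 of 12 for the proximal tubule were called lower here and 1 higher. Of 8 for the loop of Henle and distal tubule 7 were called lower and 1 higher. For endothelium 5 of 6 were called lower and for the collecting duct 3 of 8. Of 6 macrophage markers 2 were called lower and 1 higher, and of 9 adipocyte markers tested 1 lower and 1 higher. Hepatocyte markers had 2 of 6 tested called lower and adrenal cortex markers 2 of 4. The part of these markers was not tested.

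Set against Dichloroacetate alone, the effect of cisplatin on dichloroacetate-treated kidneys was 3 members called higher and 15 lower, where 40.7% of all genes were called, 21.5% higher and 19.2% lower. This comparison shares no library with Cisplatin against Saline. Cyp51 again changed most at -1.999 (SE 0.08, adjusted p = 6.54e-10), followed by Idi1 at -1.42 (SE 0.07, adjusted p = 3.21e-09) and Acaca at -1.16 (SE 0.11, adjusted p = 3.74e-06). After subtracting the median of genes of like span Acaca stood at -0.57, smaller in size than Hmgcs1 at -0.90 and Nsdhl at -0.76. Scap, Sqle and Srebf1 were the 3 called higher, at 0.34 (SE 0.05, adjusted p = 1.85e-04), 0.27 (SE 0.08, adjusted p = 0.017) and 0.21 (SE 0.07, adjusted p = 0.04). Without Dichloroacetate replicate 1, 1 member was called higher. Over all genes 3664 of 20556 were called higher in that fit, against 4377 of 20370 with every library. The call of Sqle was also lost without Dichloroacetate replicate 3 or Cisplatin+Dichloroacetate replicate 1 (adjusted p up to 0.0682), and that of Srebf1 in 6 of the 12 fits that left out 1 library (adjusted p up to 0.184). The call of Scd1, at -0.82 (SE 0.24, adjusted p = 0.014), was lost without Dichloroacetate replicate 3 or Cisplatin+Dichloroacetate replicate 3 (adjusted p up to 0.0641). Msmo1 was lower at -0.32 (SE 0.11, adjusted p = 0.028), the other sign from its change of 0.38 without dichloroacetate, and its call was lost without Dichloroacetate replicate 2 or any 1 of the 3 combination libraries (adjusted p up to 0.132). Proximal tubule markers were at 8161 to 9001 CPM in combination kidneys and 11383 to 13238 CPM in Dichloroacetate kidneys, with 9 of 12 called lower. The 8 markers for the loop of Henle and distal nephron tubule lay at 1730 to 2717 CPM in combination kidneys and 4521 to 4916 CPM in Dichloroacetate kidneys. Of these 8, 6 were called lower and 1 higher. Collecting duct markers had 3 of 8 called lower and endothelial markers 2 of 6. Of 6 macrophage markers 2 were called lower and 1 higher. Hepatocyte markers, mostly Cyp2e1 by level, were at 529 to 727 CPM in combination kidneys and 2333 to 3230 CPM in Dichloroacetate kidneys. Of 6 tested 2 were called lower. The part of these markers was not tested.

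The test of whether the cisplatin response differed with dichloroacetate is the interaction, the response with dichloroacetate minus the response without it. For 8 of the 32 members it was called, 6 higher and 2 lower, where 18.6% of all genes were called, 11.4% higher and 7.15% lower. Acaca had the largest value at 0.87 (SE 0.17, adjusted p = 0.0029): its response to cisplatin was -1.16 with dichloroacetate and -2.03 without. Genes of a like span had a median interaction of 0.36, and Acaca stood at 0.51 after subtracting it, beside Stard4 at 0.54. Stard4 was at 0.53 (SE 0.10, adjusted p = 0.0027), with responses of -0.12 with and -0.64 without dichloroacetate. Nsdhl was at 0.46 (SE 0.10, adjusted p = 0.0047) and Cyp51 at 0.40 (SE 0.11, adjusted p = 0.017), and the smallest called values were Fads2 at 0.35 (SE 0.10, adjusted p = 0.029) and Acly at 0.26 (SE 0.08, adjusted p = 0.042).

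Msmo1 and Sqle were the 2 members with a called negative interaction. Msmo1 was at -0.70 (SE 0.15, adjusted p = 0.0056) and Sqle at -0.67 (SE 0.12, adjusted p = 0.0017), whose rise with cisplatin was 0.27 with dichloroacetate and 0.94 without. For 24 members the interaction was not called. These included Idi1 at 0.03 (95% interval -0.17 to 0.23) and Insig1 at 0.02 (95% interval -0.41 to 0.46). Hmgcs1 was called in the combination against Cisplatin comparison, but its interaction was 0.16 (95% interval -0.20 to 0.51, adjusted p = 0.56), and its level was higher in Dichloroacetate than in Saline kidneys by 0.37 without being called. Of the 12 proximal tubule markers, 11 had a positive called interaction, with a median of 0.91. So did 2 of 8 markers for the loop of Henle and distal tubule and 2 of 8 for the collecting duct, but 0 of 6 for endothelium. The part of these markers in the members' interactions was not tested. The calls of Acly, Fads2 and Cyp51 were lost in 10, 7 and 2 of the 12 fits that left out 1 library, for Cyp51 without Cisplatin replicate 1 or Cisplatin+Dichloroacetate replicate 1 (adjusted p up to 0.0687). Without Cisplatin+Dichloroacetate replicate 1, 3 members were called higher for the interaction. Over all genes 1812 of 20678 were called higher in that fit, against 2327 of 20370 with every library.

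**Figure D5:**
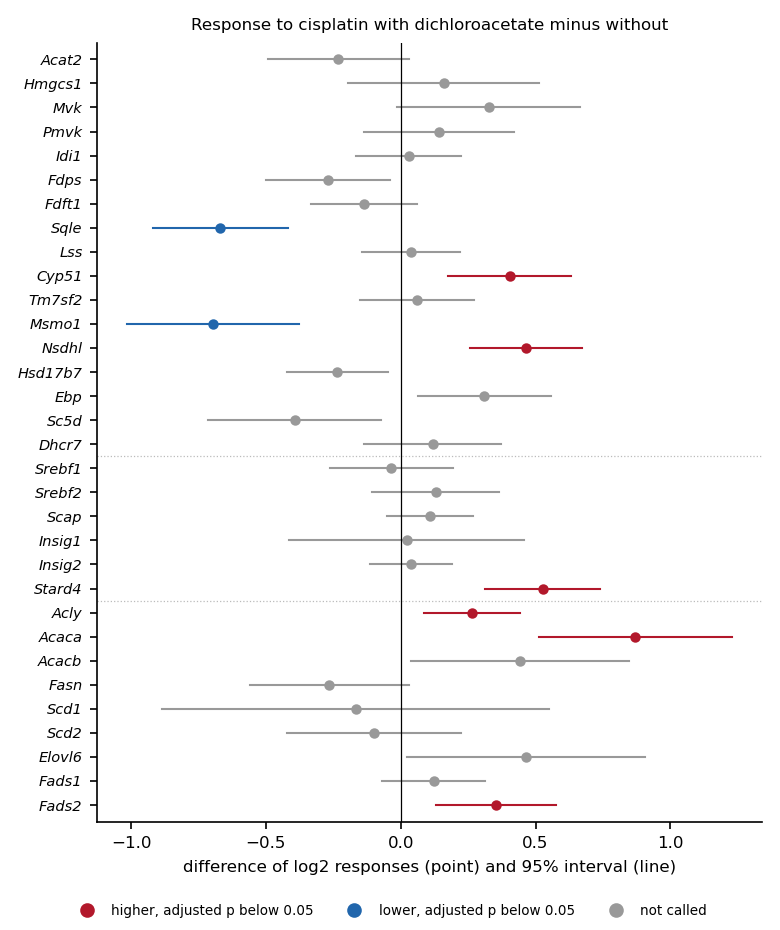
Difference of the log2 response to cisplatin with and without dichloroacetate for each member (point) with its 95% interval (line), coloured by call. Acaca, Stard4, Nsdhl, Cyp51, Fads2 and Acly lie to the right of 0 and Sqle and Msmo1 to the left; the interval of Scd1 runs from -0.88 to 0.55.

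Other genes of these pathways, listed by name, were described in the same fit. Their values are given without subtracting the median of genes of like span. With cisplatin against saline the counts below stand beside the 60.1% of all genes called, 29.7% higher and 30.4% lower, and a median of -0.01. Of 11 genes of the isoprenoid branch 2 were called higher and 5 lower, at a median of -0.11. The 3 called genes with the largest changes were Pdss2 and Pdss1, subunits of the synthase that makes the tail of coenzyme Q, at -2.29 (SE 0.11, adjusted p = 1.07e-09) and -0.62 (SE 0.09, adjusted p = 2.72e-05), and Nus1, a dolichol synthesis subunit, at -0.44 (SE 0.07, adjusted p = 1.99e-04). Of 13 genes of SREBP processing and turnover 6 were called higher and 4 lower, at a median of 0.13. Fbxw7, which targets nuclear SREBP for degradation, was higher at 0.82 (SE 0.08, adjusted p = 8.00e-07), while Erlin1, which takes part in sterol-regulated degradation at the endoplasmic reticulum, was lower at -0.81 (SE 0.10, adjusted p = 9.41e-06). Mbtps1, the site-1 protease that cleaves SREBP, was lower at -0.56 (SE 0.05, adjusted p = 2.52e-07).

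Of 30 genes of fatty acid elongation, activation and NADPH supply 7 were called higher and 14 lower, at a median of -0.14. Pgd and G6pdx, the enzymes of the pentose phosphate pathway that make NADPH, were higher at 1.75 (SE 0.06, adjusted p = 8.20e-11) and 1.66 (SE 0.06, adjusted p = 1.55e-10), and both were lower in combination than in Cisplatin kidneys, at -0.64 each. Aacs, which activates acetoacetate for lipid synthesis, was lower at -1.73 (SE 0.21, adjusted p = 9.88e-06). Of 22 genes of sterol transport, storage and LXR targets 20 were tested, 4 called higher and 6 lower, at a median of 0.03. Acat1, the mitochondrial acetoacetyl-CoA thiolase known for ketone body and isoleucine metabolism rather than for sterol storage, was lower at -1.76 (SE 0.08, adjusted p = 5.43e-10). Cyp46a1, a cholesterol 24-hydroxylase, was lower at -1.38 (SE 0.22, adjusted p = 1.18e-04), and Soat2, which esterifies cholesterol, was higher at 1.01 (SE 0.29, adjusted p = 0.0076). With dichloroacetate alone none of these 74 tested genes was called by edgeR's quasi-likelihood test, and 9 had an unadjusted p below 0.05, a share close to the 11.9% of all genes that passed that threshold. DESeq2 called 1 of them, Abca1, a cholesterol exporter that is named here after its value was seen, at -0.53 (adjusted p = 0.0144). Over all 20370 genes DESeq2 called 167 higher and 142 lower with dichloroacetate alone.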

How the data were processed

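Per the labels, kidney RNA of 12 mice in 4 groups of 3 was made into Illumina TruSeq RNA libraries, whose basic form does not record the strand. The authors deposited whole-number counts per Ensembl gene and a normalised signal, the same counts divided by 1 size factor per library. In 12 of 12 libraries it equalled, within 1e-04, a median-of-ratios factor computed here. Per the submitters' processing notes the build was mm10 and the tools included DESeq, HTSeq, bedtools, Cufflinks, TopHat and Trimmomatic; details of trimming, alignment and counting are not given.

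Counts were fitted with edgeR 4.0.16 in R 4.3.3 (filterByExpr, TMM scaling, 1 mean per group over all 12 libraries, quasi-likelihood test). P-values were adjusted by Benjamini-Hochberg over 20370 genes, and calls were made at 0.05. SEs are the log2 fold change divided by the square root of F. Gene identifiers were matched to GENCODE M21 (GRCm38, the assembly of mm10), and 1036 had no symbol. The biological coefficient of variation was 0.0917. Replicate libraries differed by more than sampling noise (chi-square per degree of freedom 4.68 to 29.0). The script was tested on simulated data. Depth sets the counting error of each level, and 3 mice per group limit the precision more.

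The members, lists and tests were chosen with earlier results of these data known. Named with every library's value were the 6 called members with the largest change in each of Cisplatin against Saline, Dichloroacetate against Saline (none were called) and Cisplatin+Dichloroacetate against Cisplatin, all called interactions up to 8, and 15 landmark members; of each other list, the 3 called genes that changed most with cisplatin. Alternatives were DESeq2 1.42.0, median-of-ratios and upper-quartile scaling, no filter, a filter of 1 CPM in 6 libraries, only the groups compared, limma 3.58.1 on log2 of the deposited normalised signal plus 1, a replicate block, each library left out, the span-class median subtracted, and motifs on the forward strand only. A value called neither in the reported fit nor under an alternative was treated as having no direction to reverse.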

Additional observations from a re-analysis of the deposited data

Results flagged for a closer look

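The response to cisplatin differed with dichloroacetate, by the interaction test of edgeR's quasi-likelihood fit, in 8 of 32 members, which is what singled them out, where 18.6% of all genes were called. Where the fall with cisplatin was smaller with dichloroacetate the interaction was positive: Acaca at 0.87, Stard4 at 0.53, Nsdhl at 0.46, Cyp51 at 0.40 and Fads2 at 0.35 on the log2 scale. Acly was at 0.26, with responses of 0.05 with and -0.21 without dichloroacetate. The calls of Acly, Fads2 and Cyp51 were lost in 10, 7 and 2 of the 12 fits that left out 1 library. The interaction was negative for Msmo1 at -0.70 and for Sqle at -0.67, both of which rose with cisplatin in the absence of dichloroacetate.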

How the results depend on the processing

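No called value of a member changed direction under any alternative. Of 88 called values of members over the 6 comparisons, 21 of 696 recomputations under other processing lost the call, over 9 distinct values, and 9 uncalled values gained one. Under other processing Idi1 in Cisplatin+Dichloroacetate against Cisplatin lost its call most often, with an adjusted p of up to 0.0843, and Srebf1 in Cisplatin+Dichloroacetate against Dichloroacetate had 0.0704 under DESeq2. Srebf2 in Cisplatin against Saline had 0.0506 with only the groups compared. Leaving out 1 library ended the call in 95 of 1056 recomputations, over 26 distinct values. Members called higher ranged from 7 to 12 in Cisplatin+Dichloroacetate against Cisplatin, from 1 to 3 in Cisplatin+Dichloroacetate against Dichloroacetate and from 3 to 6 in the interaction, and members called lower in Cisplatin+Dichloroacetate against Cisplatin ranged from 2 to 5. Over all genes those called higher ranged from 2514 to 3889, from 3511 to 4546 and from 1538 to 2607 in the same order. Those called lower ranged from 2097 to 3232. Subtracting the span-class median moved 19 called values by over 1 SD and reversed 0. Replicate numbers did not pair the samples: same-numbered libraries had correlated deviations of -0.10 to 0.15 over 18 pairs. With a replicate block 1 member was called higher in Dichloroacetate against Saline, Hmgcs1 at 0.37 (adjusted p = 0.0136), against 0 without it. Over all genes that comparison had 56 higher and 61 lower with the block and 26 higher and 37 lower by edgeR without it. By DESeq2 it had 167 higher and 142 lower. CCAAT was found in 11 of 33 member windows on the forward strand alone, against 21 on both strands; the cause of each change was not tested. Depth did not keep any member below the filter, and small changes in Dichloroacetate against Saline are limited by 3 mice per group.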
